A study of Equus caballus with 10 samples.

Results

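Sperm of low-fertility and high-fertility stallions sampled in spring was compared on 6 expression arrays, 3 of each class, out of 10 arrays in the whole series. An array entered the comparison when its season field read spring, and its fertility field then put it in the low or the high class. Every array holds sperm RNA of a different warmblood stallion (Equus caballus) of breeding age, kept at an insemination centre and sampled at 4 ejaculates each. The high-fertility arrays came from stallions 3, 4 and 9 and the low-fertility arrays from stallions 7, 8 and 10. No treatment or genotype is given for any group, and the sources used here do not state how fertility was measured. The labels also place the sampling of all stallions in the breeding season. The array of stallion 9 has a title that opens with the letters used for autumn, but it was kept in spring by its season field. Probe set counts, list medians and differences of named genes were computed again without it. Array summaries and correlations were not, and the comparison with autumn was repeated with that array counted in autumn. The other 4 arrays, 2 of each fertility class, were labelled autumn and served here for the estimate of spread and as separate stallions in which to look at the same genes.

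Mature sperm have compacted chromatin and hardly transcribe, so the RNA they carry was mostly made earlier, while round spermatids were being remodelled. In that step the histones are exchanged for transition proteins and then protamines, and the tail acquires an axoneme, outer dense fibres and a fibrous sheath. Sperm RNA thus holds traces of late spermatid genes, together with RNA of whatever other cells or secretions were in the ejaculate.

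The values are log2 signals per probe set, with a lowest value of 4. A difference of 1 is a doubling, and differences near the lowest value are understated. The array medians were 5.27, 5.39 and 5.07 for stallions 3, 4 and 9, and 5.29, 5.40 and 5.08 for stallions 7, 8 and 10. The medians were close between classes (low minus high 0.0133, exact permutation p = 0.7, two-sided, where 3 against 3 arrays cannot go below 0.1), and so were the numbers of probe sets at the lowest value (low minus high -30.3, exact permutation p = 0.9). Stallions 9 and 10 stand apart from the other 4: 2775 and 2920 of their probe sets sat at the lowest value, against 1089 to 1898 on the others, and theirs are the titles without a number in the group code. One of them is in each class. Arrays of 1 class were no more alike than arrays of different classes. The correlation across probe sets was between 0.791 and 0.907 (median 0.853, 6 pairs) within a class and between 0.794 and 0.908 (median 0.892, 9 pairs) across classes. Pairs of stallion 9 or 10 with 1 of the other 4 gave 0.791 to 0.871 within and 0.794 to 0.876 across classes. The other pairs gave 0.858 and 0.907 within and 0.892 to 0.908 across, and the medians mix these kinds of pair in unlike shares.

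Sperm transcripts were bright on all 6 arrays. PRM1, the protamine that packs sperm DNA, read 13.30, 13.43 and 12.33 in high fertility (stallions 3, 4 and 9, the order kept below) and 12.69, 13.31 and 11.58 in low fertility (7, 8 and 10, likewise). TNP1, a transition protein, read 12.98, 11.87 and 9.79 against 11.63, 12.91 and 9.80. In both genes the classes overlapped, and the lowest arrays were stallions 9 and 10. PTPRC, the pan-leukocyte surface marker, read 6.40 to 6.98 in high and 5.38 to 6.52 in low fertility, the T cell receptor gene CD3E 4.04 to 4.67 and 4.00 to 4.12, and the epithelial gene EPCAM 5.36 to 6.03 and 4.85 to 5.53. These 3 and TNP1 were chosen after their values were seen, and the marker lists given below were more mixed. In low fertility 17 of 33 leukocyte genes were higher and 16 lower. Of 25 genes of general epithelium 10 were higher and 15 lower. Probe sets differ in how well they bind, so these levels do not rank the abundance of different genes.

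No transcript passed the test for a difference between the fertility classes, given the spread between stallions. Of 30559 probe sets tested with limma, 0 passed an adjusted p of 0.05 (0% called), and the smallest adjusted p was 1. At an unadjusted p under 0.05 there were 685 probe sets, 2.24% of all, where chance alone would give 1528. Of these, 409 (1.34%) were higher and 276 (0.903%) lower in low fertility. The median 95% confidence interval of a probe set reached 0.63 log2 units to either side of its difference, and 0.72 among the 12671 brighter probe sets whose mean over all 10 arrays lay above every array's median. Smaller differences were within the error for most transcripts, and the 3 arrays per class limit the precision. The differences themselves ran from -2.51 to 2.21, with a median over all probe sets of 0.02, and 52.3% were above 0.

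Because arrays of 1 class can fall clear of the other without passing that test, the probe sets with no overlap were also counted. All 3 low-fertility arrays lay above all 3 high-fertility arrays in 1281 probe sets (4.19%) and below them in 771 (2.52%), 6.71% together. With a difference of at least 1 log2 unit as well, 61 lay above (0.200%) and 54 below (0.177%). The genes described next are the 12 in each direction with the smallest unadjusted p among brighter, non-overlapping probe sets with 1 gene symbol. Their separation was thus a condition of being named, and the adjusted p of all 24 was 1 in limma.

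**Figure D1:**
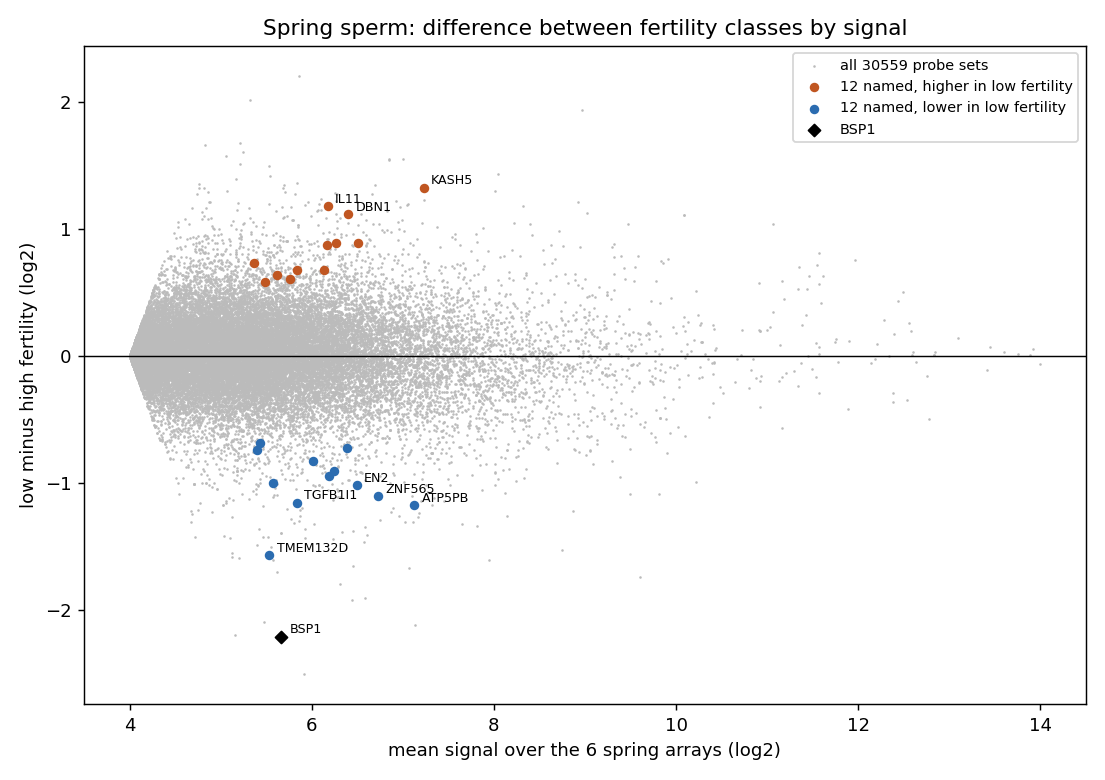
Each grey point is 1 of 30559 probe sets, with its mean log2 signal over the 6 spring arrays on the horizontal axis and its low minus high difference (log2) on the vertical axis. The coloured points are the 24 named genes, which lie between -1.57 and 1.32 with other probe sets farther out, and the black diamond is BSP1 at -2.21.

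Among the 12 genes named by p with the higher mean in low fertility, KASH5 had the largest difference. It encodes the meiotic protein that couples chromosome ends to dynein at the nuclear envelope. KASH5 read 6.13, 7.43 and 6.14 in high and 8.19, 7.79 and 7.69 in low fertility, a difference of 1.32 (SE 0.34, 2.50-fold, unadjusted p = 0.00376). Stallion 4 lay close under the low-fertility arrays and the other high-fertility arrays well below. IL11, a cytokine gene of the interleukin 6 family, read 5.28, 6.03 and 5.45 against 7.11, 6.48 and 6.71 (1.18, SE 0.33). DBN1, which encodes the actin-binding protein drebrin, read 5.60, 6.33 and 5.59 against 7.39, 6.87 and 6.61 (1.12, SE 0.28). In these genes too stallion 4 was the nearest of the high-fertility arrays.

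Several of the genes with higher means had very even signals within 1 class. CSKMT, a methyltransferase of mitochondrial citrate synthase, had the smallest unadjusted p of the 12, 0.00177. Its signals were 5.02, 4.96 and 5.02 in high and 5.88, 5.71 and 5.62 in low fertility (difference 0.74, SE 0.17). CYP26B1, which breaks down retinoic acid and in fetal mouse testis keeps germ cells out of meiosis, read 5.70, 5.52 and 5.28 against 6.12, 6.18 and 6.23 (0.68, SE 0.17). The low-fertility stallions lay close together there, clear of stallion 3. GUCY1B1, a subunit of the guanylate cyclase that senses nitric oxide, read 5.64, 5.29 and 5.45 against 6.05, 6.09 and 6.06 (0.61, SE 0.18). NSG1, an endosomal protein of neurons, read 5.16, 5.50 and 5.23 against 5.89, 5.97 and 5.95 (0.64, SE 0.18). The low-fertility arrays were again the more even of the classes in both genes.

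The others on the higher side differed by less than 1 log2 unit. MMP28, a secreted matrix metalloproteinase, read 5.62 to 5.92 in high and 6.36 to 6.59 in low fertility (0.68, SE 0.17). QSOX1, an enzyme that forms disulfide bonds in secreted proteins, read 5.10 to 5.28 and 5.63 to 5.90 (0.58, SE 0.17). CHRNA10, an acetylcholine receptor subunit, differed by 0.89 (SE 0.26), with 6.12 in stallion 4 and 6.36 in stallion 7 as the nearest arrays. ST3GAL1, which adds sialic acid to O-glycans, differed by 0.87 (SE 0.25) and the membrane protein gene TMEM52 by 0.89 (SE 0.26). In TMEM52 stallion 7, at 6.35, lay nearer to the high-fertility arrays (5.87 to 6.16) than to stallions 8 and 10 (7.29 and 7.22).

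On the lower side, TMEM132D, a membrane protein gene, had both the largest difference and the smallest p of the 12. It read 5.87, 6.72 and 6.37 in high and 5.17, 4.58 and 4.50 in low fertility, a difference of -1.57 (SE 0.29, 0.337-fold, unadjusted p = 0.000387). STYXL1, which encodes a phosphatase-like protein without catalytic activity, read 6.69, 6.80 and 6.51 against 5.96, 5.54 and 5.66 (-0.95, SE 0.19, unadjusted p = 0.000776). The nearest arrays of the classes were those of stallions 9 and 7 in STYXL1 and of stallions 3 and 7 in TMEM132D.

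Genes of mitochondria stood on this side as well. ATP5PB, a subunit of the stalk of ATP synthase, read 8.01, 7.93 and 7.20 in high and 6.67, 6.64 and 6.30 in low fertility (-1.18, SE 0.35, 0.442-fold). TSPO, a cholesterol-binding protein of the outer mitochondrial membrane, read 6.47, 6.69 and 6.91 against 6.11, 5.80 and 5.45 (-0.90, SE 0.21). PDK2, the kinase that inactivates pyruvate dehydrogenase, read 6.60, 7.05 and 6.59 against 6.06, 6.18 and 5.82 (-0.73, SE 0.21). In ATP5PB the lowest array of each class was that of stallion 9 or 10, while in TSPO stallion 9 was the highest of all 6.

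The remainder included regulators of transcription. MED26, a subunit of Mediator, read 6.07, 6.11 and 6.05 in high and 5.40, 5.22 and 4.61 in low fertility (-1.0, SE 0.24). TGFB1I1, a focal adhesion adaptor that also binds the androgen receptor, read 6.02, 6.72 and 6.49 against 5.30, 5.20 and 5.26 (-1.16, SE 0.29). Each of these genes was even in 1 class and scattered in the other. The zinc finger gene ZNF565 differed by -1.10 (SE 0.29), the homeobox gene EN2 by -1.02 (SE 0.28) and AEBP2, a partner of Polycomb repressive complex 2, by -0.74 (SE 0.21). The last pair were ANXA9, an annexin gene, at -0.83 (SE 0.22) and C8B, a component of complement, at -0.69 (SE 0.20).

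**Figure D2:**
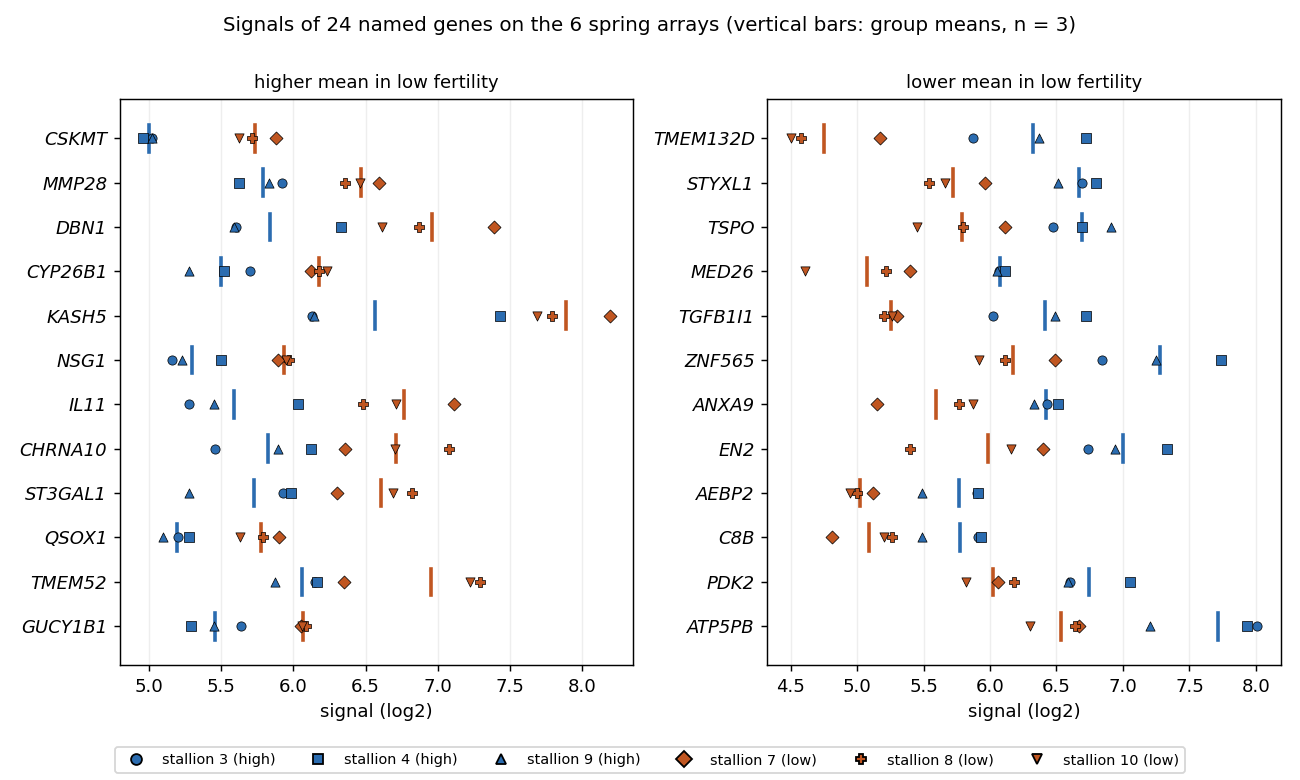
Log2 signals of the 24 named genes on each spring array, 12 with the higher mean in low fertility on the left and 12 with the lower mean on the right. Points are arrays (blue high, orange low fertility) and vertical bars are group means of 3. By the naming rule no gene overlaps, but the gap is narrow in KASH5, where stallion 4 reads 7.43 and stallion 10 reads 7.69.

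By size rather than p, and without the brightness condition, the 3 largest non-overlapping differences per direction included KASH5 and TMEM132D, given above, and 4 other genes. CD70, a ligand of the tumour necrosis factor family on activated lymphocytes, had the smallest unadjusted p of all 30559 probe sets, 9.24e-05. It read 6.30, 6.21 and 5.91 in high and 4.48, 4.66 and 4.81 in low fertility (-1.49, SE 0.22). SPIB, a transcription factor gene of B cells, read 5.77, 6.46 and 6.89 against 5.42, 4.47 and 4.41 (-1.61, SE 0.35). All low-fertility values of CD70 and 2 of 3 of SPIB were below their arrays' medians. WNT7A, which encodes a secreted Wnt ligand, read 4.90, 4.83 and 4.77 against 4.98, 7.47 and 6.31 (1.42, SE 0.52), so that stallion 7 was nearly level with the high-fertility arrays. LOC100062173, for which the annotation gives only this symbol, differed by 1.29 (SE 0.47), mostly through 7.62 in stallion 8.

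The largest difference in any gene list was that of BSP1, which encodes a seminal plasma protein that coats sperm. BSP1 read 8.40, 7.19 and 4.70 in high and 4.30, 4.49 and 4.86 in low fertility (-2.21, SE 0.75, 0.216-fold, unadjusted p = 0.0164). The classes overlapped: stallions 3 and 4 were high, and stallion 9 lay among the low-fertility arrays. Without stallion 9 the difference was -3.245, with an adjusted p of 0.48 in limma, and without stallion 3 it was -1.395. LCN2 and CRISP3, secretory genes of the male tract picked out after their values were seen, were high in stallion 3 alone, at 8.22 and 7.52, against 5.20 to 5.51 and 4.25 to 5.17 in the other 5. The list of epididymis and accessory gland genes as a whole was level, with 12 of its 24 measured members higher, 12 lower and a median of -0.0033. Of the array levels of that list, stallion 3 had the highest at 5.83, and the other 5 were at 5.08 to 5.45. In these bulk samples more secretory cells or fluid and more RNA per cell cannot be told apart.

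The late spermatid list, of genes made under the activator CREM and others of that stage, showed the lowest median of the 26 lists. Of 37 measured genes 25 were lower and 12 higher in low fertility, with a median of -0.21 against 0.02 over all probe sets. None passed the test, 0 lay above and 2 below without overlap, 5.41% against 6.71% of all probe sets. LELP1 read 10.53, 11.06 and 10.55 against 10, 10.11 and 9.05 (-0.99, SE 0.37), and SPATA18, which acts in mitochondrial quality control, 9.91, 10.27 and 9.94 against 9.47, 9.59 and 7.81 (-1.08, SE 0.49). Stallion 10 was the lowest in both genes. KIF17, a kinesin that in mouse spermatids carries the CREM partner ACT, overlapped between classes at -0.64 (SE 0.39). The list's mean level was 8.0, 8.13 and 6.75 in high and 7.43, 8.23 and 6.57 in low fertility, so arrays of 1 class differed by far more than the classes. Without stallion 10 the median turned to 0.14, without stallion 8 it was -0.72, and without stallion 9 it was -0.71. On the 4 autumn arrays it was 0.51, with 33 of 37 genes higher in low fertility, against 0.08 over all probe sets.

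Structural genes of the tail had a like pattern. In the outer dense fibre and fibrous sheath list 14 of 18 measured genes were lower and 4 higher, with a median of -0.185. The median became 0.105 without stallion 10, -0.62 without stallion 8 and -0.56 without stallion 9. None of the 18 was free of overlap, against 6.71% of all probe sets. ODF1, a main protein of the outer dense fibres, read 12.06, 11.46 and 10.84 against 11.12, 12 and 9.53 (-0.57, SE 0.61). Its sign turned without stallion 10, to 0.11. FSCB, a calcium-binding protein of the fibrous sheath, stood at -0.66 (SE 0.63) and AKAP14, an anchor of protein kinase A, at -0.77 (SE 0.58), both with overlap. The axoneme list was nearer to level, 25 higher and 32 lower of 57 with a median of -0.06. IQCG, of the nexin-dynein regulatory complex of the axoneme, read 5.86, 5.70 and 5.52 against 5.07, 5.15 and 5.43 (-0.48, SE 0.19). In the other direction CCDC65, another part of that complex, was at 0.54 (SE 0.26) and MNS1, needed for assembly of the sperm tail in mice, at 0.65 (SE 0.31), both without overlap. Over the axoneme list 8.77% were free of overlap, against 6.71% of all probe sets.

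Kinase and phosphatase genes of sperm held 17 of 25 members lower and 8 higher, with a median of -0.20, which was 0.06 without stallion 10 and -0.39 without stallion 9. STYXL1, described above, was the only member of this list with an unadjusted p under 0.05. CDK16, a cyclin-dependent kinase needed for spermatogenesis in mice, overlapped at -0.47 (SE 0.25). TSKS, the substrate of the testis-specific serine kinases, went the other way, with 6.86, 6.83 and 6.78 against 7.57, 7.0 and 7.09 (0.40, SE 0.22) and no overlap.

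Sperm chromatin genes lay on both sides. The list of 16 had 7 higher and 9 lower, with a median of -0.09, which was 0.35 without stallion 10 and -0.165 without stallion 9. PRM1 was at -0.49 (SE 0.49), with the values given above. BRDT, the testis reader of acetylated histones that begins their removal, read 6.02, 6.99 and 6.69 against 7.23, 7.37 and 6.83 (0.58, SE 0.28). CHD5, a chromatin remodeller of spermatids, read 7.78, 8.61 and 7.35 against 8.74, 8.81 and 7.98 (0.60, SE 0.39). Both overlapped, with stallion 10 below stallion 4.

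Genes for binding and entering the egg, for ion transport and for sperm glycolysis lay near level. The acrosome and egg-binding list had 17 higher and 16 lower of 33, with a median of 0.02. CD81, a tetraspanin, was at 0.22 (SE 0.17), the lysozyme-like acrosomal gene SPACA3 at 0.33 (SE 0.28) and SPACA9 at -0.67 (SE 0.61). For ion channels and cyclic AMP signalling 20 were higher and 15 lower of 35 (median 0.05). Closest to the threshold were the aquaporin gene AQP11 at 0.50 (SE 0.28), the carrier gene SLC22A14 at 0.35 (SE 0.20) and ATP1A4, the sodium pump of the sperm tail, at -0.38 (SE 0.22). Of 22 glycolysis genes 13 were higher and 9 lower (median 0.08). PGAM1, at 0.37 (SE 0.22), was the only member free of overlap, 4.55% of the list against 6.71% of all probe sets. TPI1, triosephosphate isomerase, was at -0.63 (SE 0.41) and SLC2A3 at -0.40 (SE 0.29), both with overlap. None of these named members passed the test. Without stallion 9 the medians of these lists were -0.14 (acrosome), -0.12 (ion channels) and -0.20 (glycolysis), all below 0.

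**Figure D3:**
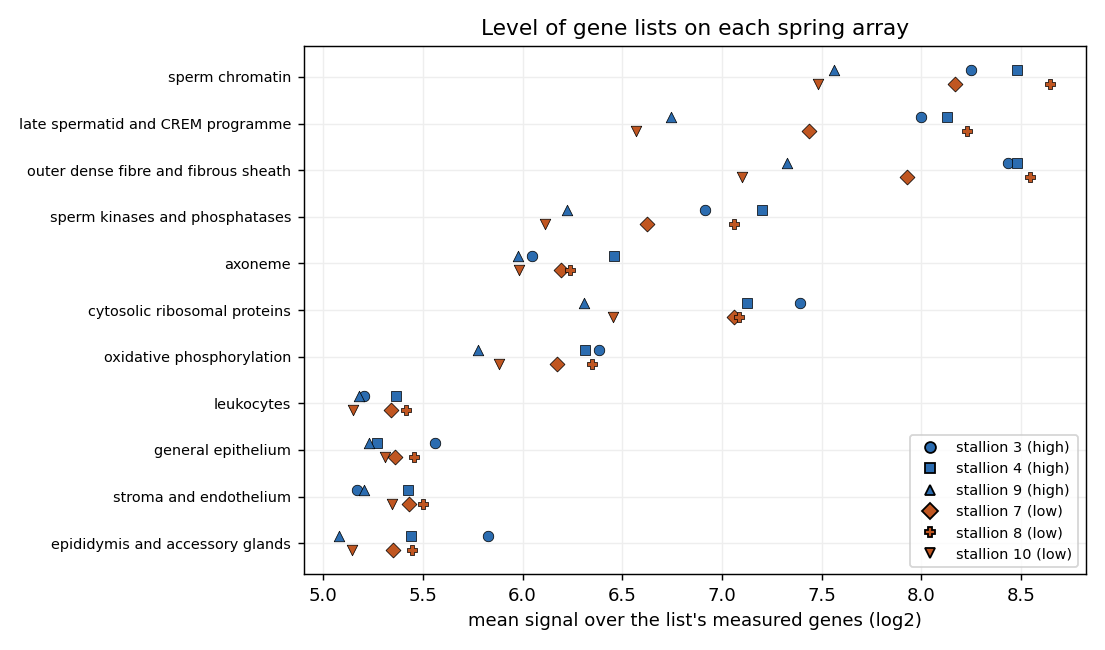
Mean log2 signal of 11 gene lists on each of the 6 spring arrays (blue high, orange low fertility). Within either class the sperm lists spread by more than 1 log2 unit in late spermatid genes, with 6.75 to 8.13 over the high-fertility and 6.57 to 8.23 over the low-fertility stallions, with stallions 9 and 10 lowest.

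Oxidative phosphorylation, among the larger lists, held the most members with small p by count. Of 61 measured genes 29 were higher and 31 lower, with a median of -0.0033. An unadjusted p under 0.05 was found for 3 lower and 1 higher, and for 2.24% of all probe sets. In the smaller leukocyte list it was found for 2 higher and 1 lower of 33. The oxidative phosphorylation genes without overlap were 2 higher and 4 lower, 9.84% against 6.71% of all probe sets. Besides ATP5PB, those with an unadjusted p under 0.05 in limma were complex I genes. NDUFB5 read 5.02, 4.97 and 5.24 against 4.41, 4.20 and 4.00 (-0.87, SE 0.22), and NDUFA12 read 7.43, 6.92 and 7.11 against 6.54, 6.11 and 6.76 (-0.68, SE 0.22). The 1 higher gene under that p, NDUFB11, outside the naming rule, read 6.84, 5.97 and 6.42 against 7.09, 7.51 and 6.94 (0.77). Subunits of the same complex thus stood on both sides.

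Protein synthesis and turnover genes had medians near 0 over the 6 arrays, and these moved with the arrays used. Cytosolic ribosomal proteins had 30 higher and 35 lower of 66 (median -0.01), with RPL13 at -0.51 (SE 0.21) and without overlap, RPS10 at -0.51 (SE 0.32) and RPLP1 at -0.97 (SE 0.78). The median was -0.20 between stallions 7 and 8 and stallions 3 and 4, and 0.165 for stallion 10 minus stallion 9. Without stallion 9 it was -0.34. Translation factors had 28 of 35 lower and 6 higher, with a median of -0.08, which was -0.42 without stallion 9 and 0.085 without stallion 10. EIF6 was at -0.45 (SE 0.24), EIF4G2 at -0.60 (SE 0.35) and EIF5B at 0.67 (SE 0.40), all overlapping. Proteasome and ubiquitin genes had 24 of 39 lower (median -0.07), where the ATPase subunits PSMC1 at 0.47 (SE 0.25) and PSMC2 at 0.35 (SE 0.21) had higher means and UCHL1, a ubiquitin hydrolase, was at -0.70 (SE 0.62).

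Among stress genes, 23 of 32 antioxidant genes were lower (median -0.12, with 0.10 without stallion 10 and -0.19 without stallion 9). TXN, thioredoxin, read 5.58, 5.27 and 4.50 against 4.41, 4.43 and 4.46 (-0.68, SE 0.34), free of overlap only by the margin between stallions 9 and 10. PRDX3 and GPX5 were at 0.31 (SE 0.21) and 0.29 (SE 0.23). Heat shock genes were level over the 6 arrays (median -0.015 over 30, with -0.13 without stallion 9). CCT8 was at 0.27 and CCT7 at 0.23. HSPB1 was at 0.33 (SE 0.35) with overlap, where stallion 9 read 4.35 and the other high-fertility arrays 5.76 and 5.72. In the apoptosis and DNA damage list, 12 higher and 16 lower of 29, the death receptor gene FAS read 7.06, 7.88 and 7.81 against 5.97, 6.71 and 7.29 (-0.93, SE 0.36), overlapping through stallions 3 and 10. Its ligand gene FASLG was at 0.31 (SE 0.20) and CASP2 at 0.26 (SE 0.20).

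Genes of hormone response included 1 with a small p in each direction. DIO3, the deiodinase that inactivates thyroid hormone, read 5.78, 5.93 and 5.40 in high and 5.11, 4.61 and 4.00 in low fertility (-1.13, SE 0.34, 0.457-fold). HSD17B1, which makes oestradiol from oestrone, read 6.22, 5.18 and 5.26 against 6.54, 6.49 and 6.72 (1.03, SE 0.33, 2.04-fold). Neither gene overlapped and neither passed. Over the list 7.14% were free of overlap, against 6.71% of all probe sets. Aromatase, CYP19A1, was at -0.67 (SE 0.37) with overlap. The list of 28 had 18 higher and 10 lower, with a median of 0.035.

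Candidate genes for stallion fertility lay near level. Of 25 measured, 11 were higher and 14 lower (median -0.02, with -0.29 without stallion 9). Of these 0 were free of overlap, against 6.71% of all probe sets, and 25 genes are too few to tell such shares apart. BSP1 was the only one with an unadjusted p under 0.05, which 2.24% of all probe sets had. FKBP6, a gene with variants tied to stallion subfertility, read 4.96, 5.55 and 4.95 against 5.88, 5.36 and 5.61 (0.46, SE 0.28).

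Most lists of markers of other cells did not lean to either class. Those of leukocytes, general epithelium, and stroma and endothelium had mean levels near the array medians. The spermatogonia list lay higher, at 5.71 to 5.88 in high and 5.35 to 5.79 in low fertility. In the leukocyte list, 17 of 33 were higher and 16 lower (median 0.04), and its mean level was 5.18 to 5.37 in high and 5.15 to 5.42 in low fertility. In it 7 members lay above their array's median on all 6 arrays, and 0 were at the lowest value on all 6. The neutrophil calgranulin gene S100A12 read 4.96, 5.27 and 5.36 against 5.68, 6.60 and 5.65 (0.78, SE 0.33), and CD79B of the B cell receptor 5.50, 5.37 and 5.47 against 5.68, 5.86 and 6.08 (0.43, SE 0.17). FCER1G, an Fc receptor chain of myeloid cells, went the other way, with 5.50, 5.66 and 5.48 against 4.90, 5.08 and 5.21 (-0.48, SE 0.20). All 3 were free of overlap but did not pass the test. Over the list 3 genes lay above and 1 below without overlap, 12.1% against 6.71% of all probe sets. The inflammatory and interferon list had 8 higher and 14 lower of 22 (median -0.08). Its median stayed below 0 under every alternative run, between -0.163 and -0.0225, and was 0.0775 on the 4 autumn arrays. TNF was at 0.52 (SE 0.23) without overlap, ISG15 at -0.39 (SE 0.22) and IFIT3 at 0.39 (SE 0.24). Over the list 2 genes lay above and 1 below without overlap, 13.6% against 6.71% of all probe sets.

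Genes of stroma and endothelium had the highest median of all lists, 0.12, with 19 of 24 higher in low fertility. The median stayed above 0 under every alternative run, between 0.0717 and 0.225, and was 0.0975 for stallions 7 and 8 against 3 and 4 and 0.09 for stallion 10 minus 9. On the 4 autumn arrays the median was -0.005, with 12 of 24 higher. SPARC, a matrix protein gene, read 4.58, 5.27 and 5.49 against 5.82, 5.80 and 5.71 (0.66, SE 0.25) and ACTA2, smooth muscle actin, 5.82, 5.84 and 5.17 against 5.89, 6.50 and 6.37 (0.64, SE 0.24). Both were free of overlap, 2 of 24 or 8.33% of the list, near the 6.71% of all probe sets. KDR, an endothelial receptor, was at 0.45 (SE 0.24). The list's level was 5.17, 5.42 and 5.205 in high and 5.43, 5.50 and 5.34 in low fertility, overlapping and close to the array medians. Whether these cells had a part in the other differences was not tested.

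General epithelium had 10 higher and 15 lower of 25 (median -0.10, with 0.02 without stallion 9). The desmosome gene DSC2 was at 0.48 (SE 0.23) and DSG3 of the same structure at -0.35 (SE 0.17), both free of overlap. They made up 8% of the list, against 6.71% of all probe sets. CSTA, a protease inhibitor of epithelia, read 4.10 to 4.17 against 4.08 to 4.91, with stallions 8 and 10 high. Earlier germ cells and testis somatic cells were close to level too. Meiotic genes had 12 higher and 20 lower of 32 (median -0.04, with -0.17 without stallion 9). The cohesin gene REC8 was at 0.41 (SE 0.17) and SPO11, which cuts DNA to start recombination, at 0.54 (SE 0.26), both free of overlap. Over the list 9.4% were free of overlap, against 6.71% of all probe sets. The chromatoid body gene TDRD6 was at -0.70 (SE 0.40). Spermatogonia had a median of -0.08 over 17, with LIN28A at -0.61 and NANOS3 at -0.58. Sertoli and Leydig cells had 9 higher and 9 lower of 18 (median 0.01), with the steroid enzyme genes CYP11A1 at 0.36 and CYP17A1 at 0.29. CLU of that list went the other way, at -0.52 (SE 0.35) with overlap. Erythroid genes had a median of 0.08 over 7.

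Over all lists, 764 of 948 listed genes were measured and 0 passed the test. An unadjusted p under 0.05 was found for 7 higher and 11 lower, 2.36% against 2.24% of all probe sets, and 5.24% were free of overlap against 6.71%. These lists therefore held no larger share of separated genes than the array as a whole.

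**Figure D4:**
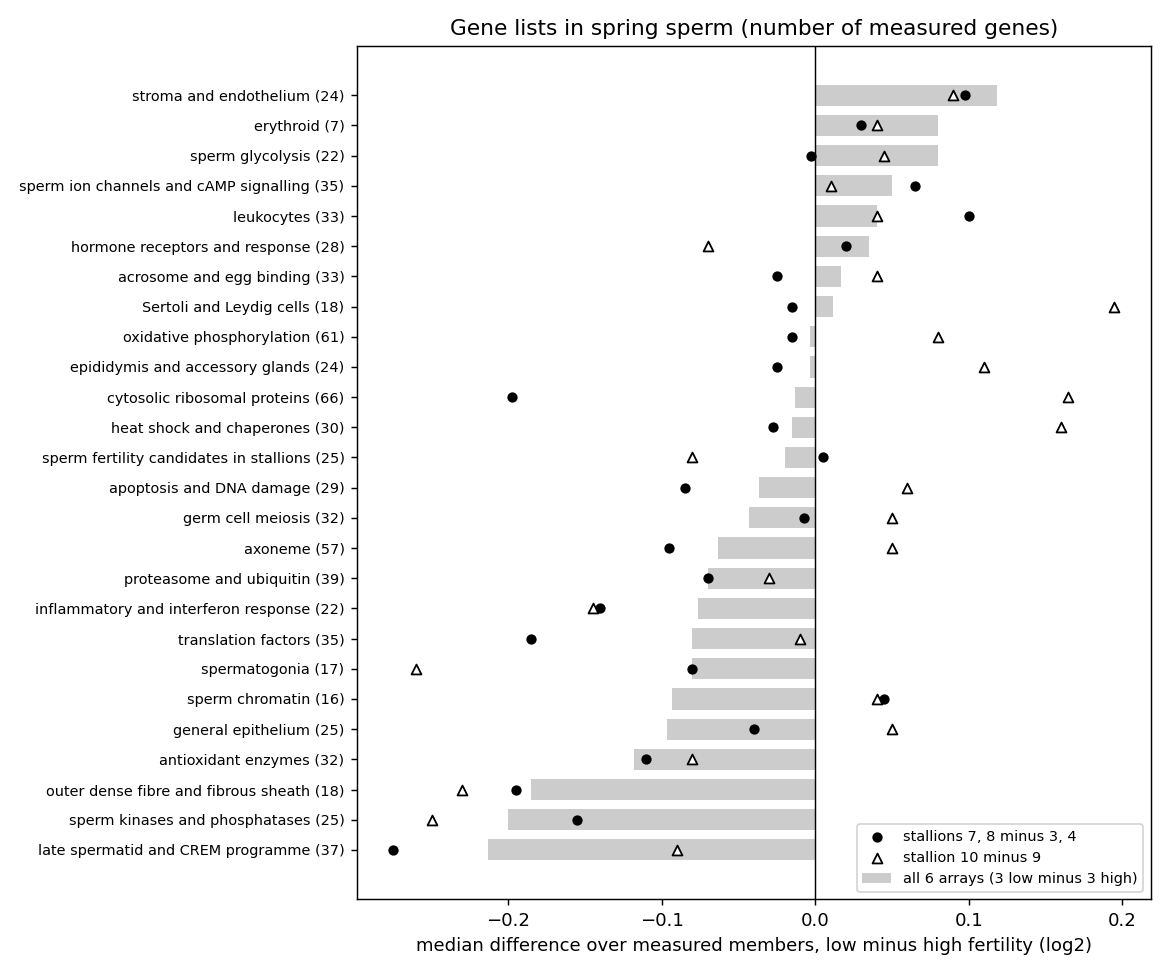
Median low minus high difference (log2) of 26 gene lists, each with its number of measured genes. Grey bars use all 6 arrays, filled circles stallions 7 and 8 against 3 and 4, and open triangles stallion 10 minus stallion 9. The late spermatid list is lowest at -0.21 and the stroma and endothelium list highest at 0.12, and in 13 of the 26 lists the circle and the triangle lie on opposite sides of 0.

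The arrays of stallions 9 and 10 gave a comparison of their own, since 1 is of each class. In all 24 named genes the difference of stallion 10 minus 9 had the same sign as that of stallions 7 and 8 against 3 and 4, which the naming rule fixes. Adding a term for the title format to the model left 0 probe sets past the threshold (926 at an unadjusted p under 0.05), as did leaving out both arrays (714) or stallion 9 alone (833).

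The 4 autumn arrays are of other stallions. Their low minus high difference was not used in naming the genes, but their spread entered the p-values and their signals the brightness condition. In these, 11 of the 24 had the same sign of difference as in spring, 5 of the 12 higher and 6 of the 12 lower, while 60.1% of all probe sets were above 0 in autumn. Without overlap in autumn and in the spring direction were MMP28 at 0.275, CYP26B1 at 0.255, NSG1 at 0.385, GUCY1B1 at 0.435, STYXL1 at -0.45, ANXA9 at -0.265 and C8B at -0.135. Against the spring direction, also without overlap, were CSKMT at -0.31, DBN1 at -0.825, KASH5 at -0.61, TMEM52 at -0.66, TSPO at 0.105 and PDK2 at 0.41. In autumn 18.1% of all probe sets lay above and 10.6% below without overlap, a looser condition with 2 arrays against 2. TMEM132D, at 0.135, and ATP5PB, at 0.655, had the opposite sign from spring and overlapped. The difference between the seasons did not pass for any of the 24 (smallest adjusted p of the interaction 1 in limma). For this contrast 13 of the 24 had an unadjusted p under 0.05 in limma. Choosing genes by a small spring p favours that, so the count is no check. Over all probe sets that contrast passed for 1 (0.00327%), while 3.79% had an unadjusted p under 0.05. Lists with a median below 0 in spring could stand above it in autumn. The autumn median was 0.36 for outer dense fibre and fibrous sheath, 0.465 for kinases and phosphatases and 0.49 for sperm chromatin. Over all probe sets it was 0.08.

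**Figure D5:**
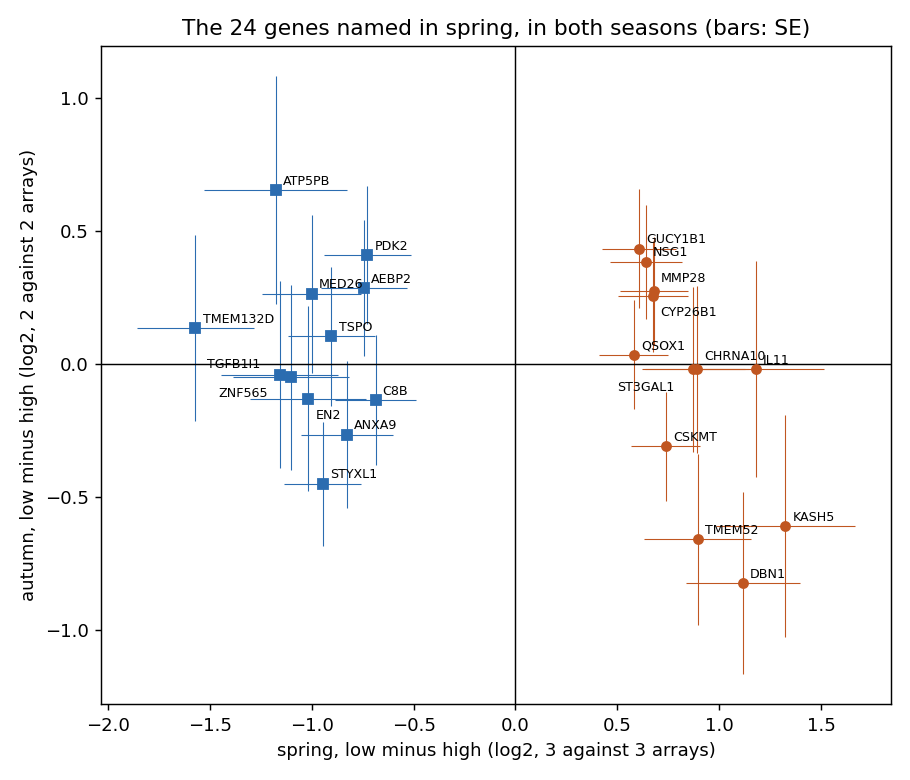
Low minus high difference (log2) of the 24 genes named in spring, with the spring value (3 against 3 arrays) on the horizontal axis and the autumn value (2 against 2 other arrays) on the vertical axis. Bars are standard errors from the fit, orange circles the genes higher and blue squares those lower in low fertility in spring. Of the 24, 11 fall in the same-sign quadrants, STYXL1 and GUCY1B1 farthest in among them in autumn.

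Named probe sets clear of overlap in both seasons in the same direction numbered 102 with the higher and 43 with the lower signal in low fertility. Over all probe sets there were 176 and 95, which is 13.7% of the 1281 higher and 12.3% of the 771 lower in spring, and 3.18% of the 5541 higher and 2.94% of the 3228 lower in autumn. In opposite directions 147 were lower in spring and higher in autumn, 19.1% of the 771, and 152 the reverse, 11.9% of the 1281. In autumn 18.1% of all probe sets lay above and 10.6% below without overlap. Those named here were chosen after their values were seen. WNT7A was at 1.42 in spring and 1.12 in autumn, S100A12 at 0.78 and 1.025, and the tail gene MNS1 at 0.65 and 0.70. OLFM4, which encodes a secreted glycoprotein of neutrophils and gut, read 5.02 to 5.16 in high and 5.57 to 5.72 in low fertility in spring, with an autumn difference of 1.31. On the lower side was GADD45A, a gene induced by DNA damage, at -0.81 and -0.595, beside STYXL1.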

How the data were processed

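Sperm RNA of 10 stallions was hybridised to 1 Affymetrix array each. The authors deposited a table of log2 values, 1 per probe set and array. Affymetrix Expression Console 1.1 and GCOS 1.1.1 appear in the submitters' processing notes with no role given. How background was removed, and how probes were summarised and scaled, is not stated in the sources used here. Of 30559 probe sets, 16789 had 1 symbol in the platform's annotation, 343 several and 13427 none, and symbols can be old. For each gene list the probe set with the highest mean represented a gene.

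A model with a mean for each of 4 groups was fitted to all 10 arrays with limma 3.58.1 in R 4.3.3 (6 residual and 2.96 prior degrees of freedom). The contrast was spring low minus spring high, two-sided, with Benjamini-Hochberg adjustment over all probe sets and a threshold of 0.05. No filter was applied. The fit was tested on simulated data. Named genes were up to 12 per direction past the threshold, filled by smallest unadjusted p among bright, non-overlapping, single-symbol probe sets (at most 2 LOC symbols), the 3 largest differences per direction without overlap, and up to 3 members of each of 26 lists by p. Members, lists and rule were chosen with earlier results of these data known. Alternatives changed the arrays used, normalization, filter, moderation, weights and the title format term. Each array is a different stallion, so spread covers animals and handling together.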

Additional observations from a re-analysis of the deposited data

Results flagged for a closer look

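One result was picked out because the fertility difference itself differed between the seasons. LOC100061699, for which the annotation gives only this symbol, had a spring difference of 0.14 (low minus high) and an autumn difference of 4.92, so that the spring minus autumn difference was -4.78 (SE 0.38, adjusted p = 0.0148 in limma). In spring it read 5.48 to 5.91 in high and 5.43 to 6.26 in low fertility, with overlap, and in autumn 6.15 and 6.18 in high and 11.14 and 11.03 in low fertility. No other of the 30559 probe sets passed for this contrast, and 1158 (3.79%) had an unadjusted p under 0.05.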

How the results depend on the processing

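Under all 16 alternatives 0 probe sets passed the threshold in limma, with a smallest adjusted p of 0.135 (stallion 9 counted in autumn) and 217 to 1202 at an unadjusted p under 0.05. The count without overlap, 2052, rose by construction with fewer arrays, to 8633 when stallions 9 and 10 were left out, 4880 when stallion 9 was put in autumn and 3953 to 5252 without any 1 array. It was 775 among bright probe sets alone, where fewer were tested. Lists with a median above 0 went from 8 to 3 with stallion 9 in autumn, and from 2 (without stallion 8) to 24 (without stallion 10) when 1 array was left out. The genes sharing their sign in autumn went from 11 to 17 with stallion 9 in autumn, which is no check, since its values helped to name them. Of 1568 values of named genes under alternatives, 8 turned sign and 0 passed. Of the 384 for the 24 brighter genes named by p, 0 turned. This is no check, since their lack of overlap fixes the sign whichever arrays are left out. HSPB1, at 0.33 over all 6 spring arrays, became -0.13 with stallion 9 in autumn and -0.14 without stallions 9 and 10. With 1 array left out, HSPB1 ranged from -0.13 (stallion 9) to 0.57, BLVRB from -0.0083 (stallion 4) to 0.24 and ODF1 from -1.13 to 0.11 (stallion 10). For stallion 10 minus 9, an alternative chosen after seeing the data, BSP1 and CLU were 0.16 and BLVRB -0.14. Over all 6 spring arrays BSP1 was at -2.21, CLU at -0.52 and BLVRB at 0.14. The cause was not tested. The term for the title format gives no count without overlap. No paired analysis was possible because each stallion gave 1 array and no label ties stallions of different classes.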
